A study of Mus musculus with 14 samples.

Results

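In mouse carotid arteries, 202 transcripts were lower with the drug rosiglitazone than with its vehicle in all 7 pairs of libraries. Their mean fall also passed a set limit. They are among 12669 transcripts with a mean of at least 5 TPM (transcripts per 1000000 transcripts, an estimate of abundance scaled for transcript length). The 202 were selected on these same values. A pair is the rosiglitazone and the dimethyl sulfoxide (DMSO) library of 1 genotype with the same replicate number, the difference within a pair is on the log2(TPM + 1) scale, and a transcript was taken when all 7 differences were below 0 and their mean was -0.4 or less. Whatever the mean difference, 725 of the 12669 were below 0 in all 7 pairs and 131 were above 0 in all 7. The whole table lists 63244 transcripts. The same rule turned round, above 0 in all 7 pairs with a mean of 0.4 or more, gave 54. Lowered transcripts were thus 1.59% and raised ones 0.426% of those with a mean of at least 5 TPM, and lowered ones were 78.9% of both together. That excess of falls depended on how the libraries were scaled to each other. With median-of-ratios scaling the rule gave 81 lowered against 126 raised, so that 39.1% were lowered, and with quantile normalization it gave 101 against 91, or 52.6% lowered. Of the 202, the rule was still met by 80 under the first scaling and by 100 under the second.

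RNA of carotid arteries from male C57BL/6J mice was sequenced in 14 libraries. The wild-type mice (WT) gave 3 libraries with DMSO and 3 with rosiglitazone, and the mice with a knockout of retinol-binding protein 7 (KO) gave 4 and 4. Rosiglitazone was given at 10 µM for 24 h, and DMSO, the vehicle, for the same time. The labels differ on whether isolated arteries or live mice were exposed, do not give the age of the mice, the kind of knockout allele or whether replicates were separate animals, so the spread between libraries may in part be technical. Libraries are called here by genotype, treatment and replicate number.

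Rosiglitazone is a thiazolidinedione that binds and activates PPAR gamma, a nuclear receptor that pairs with the retinoid X receptor on DNA and is known for turning on genes of fatty acid uptake and storage. Activated PPAR gamma is also known to lower the transcription of some genes, among them inflammatory ones. In vessels the receptor acts in endothelium and in smooth muscle, and retinol-binding protein 7 is a small intracellular retinol carrier found in endothelium and fat. The deposited identifiers could not be matched to gene symbols (0 of 63244), so the transcripts are named by identifier only, their functions are not described, and neither the tissue's defining markers, known PPAR gamma targets nor the knockout itself could be checked here. In whole arteries, fewer cells of a type and less RNA per cell cannot be told apart.

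The pair with KO replicate number 4 stood apart from the other libraries. The 2 most abundant transcripts of each library took 33.2% and 37.5% of the TPM in its DMSO and rosiglitazone libraries, against 41.8% to 48.8% in the other 12. These libraries also held 27686 and 26716 transcripts with at least 1 TPM, against 23996 to 26179 elsewhere. Without this pair the rule gave 276 lowered transcripts, 183 of which were among the 202.

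Over all 202 transcripts the falls were moderate. The mean difference over pairs had a median of -0.53 on the log2(TPM + 1) scale, with quartiles at -0.67 and -0.47 and a range from -1.38 to -0.40, while the median over all 12669 transcripts was -0.05. A mean of -1 or less, that is a halving of TPM + 1, was reached by 6 transcripts. A further 66 lay between -1 and -0.6, and the largest class, 130, lay above -0.6, of which 78 lay above -0.5. The rule's limit therefore cut through a dense range of values. Just inside it stood uc008qjz.3 and uc007hnb.1, both at -0.40. Just outside stood uc008guc.2 at -0.3993 and uc007hxv.1 at -0.3991, each lower in all 7 pairs as well.

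Most of these transcripts were of low to middle abundance. Their mean TPM had a median of 11.3 against 13.2 for all transcripts above the minimum, both on the TPM scale. There were 87 with a mean under 10 TPM, 106 from 10 to 100, and 9 at 100 or more. As a share of the transcripts of each abundance, they made up 1.87% from 5 to 10 TPM, 1.44% from 10 to 100, 1.33% from 100 to 1000 and 2.44% above, the last being 1 of 41. All 202 had at least 1 TPM in at least 3 libraries, and no 2 of them had identical values.

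The 1 very abundant transcript was uc009eml.1, with a mean of 7154 TPM. With DMSO the WT libraries held 10002, 7765 and 10226 TPM of it, and with rosiglitazone 6215, 4773 and 4594 TPM. In KO they were 11869.5, 9506, 7758 and 6619 TPM with DMSO and 4652, 6080.0, 6116 and 3982 TPM with rosiglitazone. Every rosiglitazone library lay below every DMSO library, in both genotypes. The mean difference was -0.80 ± 0.34 (SD, n = 7 pairs) on the log2(TPM + 1) scale.

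Because of its size, uc009eml.1 weighed heavily in the summed level of the group. The 202 transcripts together made 14504.1 to 17615 TPM in WT DMSO and 8913.66 to 9997.22 TPM in WT rosiglitazone libraries. In KO the sums were 14013.7 to 18897.2 TPM and 9270.52 to 9897.83 TPM. Without uc009eml.1 they were 5868.5 to 7388.79 against 3782.03 to 4998.8 TPM in WT, and 6255.7 to 8259.35 against 3751.06 to 5288.56 TPM in KO. The sums with rosiglitazone were below all sums with DMSO in each genotype with or without it, as the choice of the transcripts makes likely. Within pairs, the sum without uc009eml.1 was lower with rosiglitazone by 25.8% to 40.4%.

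The largest mean fall was that of uc007ppt.2, at -1.38 ± 0.71 (SD, n = 7 pairs), a 2.599-fold lower TPM + 1. Its levels in WT were 7.90, 9.29 and 13.1 TPM with DMSO and 2.21, 2.92 and 6.07 TPM with rosiglitazone. In KO they were 14.3, 12.8, 11.0 and 33.3 TPM with DMSO and 9.74, 6.81, 2.47 and 4.42 TPM with rosiglitazone. Groups did not overlap within either genotype, but KO rosiglitazone replicate 1 exceeded 2 WT DMSO libraries. The fall was largest, -2.66, in the KO pair 4, whose DMSO library was also the highest of all 14.

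Next came uc012dxs.1, with a mean of -1.18 ± 0.60 (SD, n = 7 pairs). It stood at 16.4, 29.9 and 32.3 TPM in WT DMSO, and at 10.8, 6.74 and 16.5 TPM in WT rosiglitazone libraries. In KO the levels were 13.96, 34.0, 17.1 and 23.7 TPM with DMSO and 3.502, 11.8, 12.8 and 9.52 TPM with rosiglitazone. The KO groups did not overlap, whereas in WT the highest rosiglitazone level passed the lowest DMSO level by a narrow margin, 16.5 against 16.4 TPM.

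**Figure D1:**
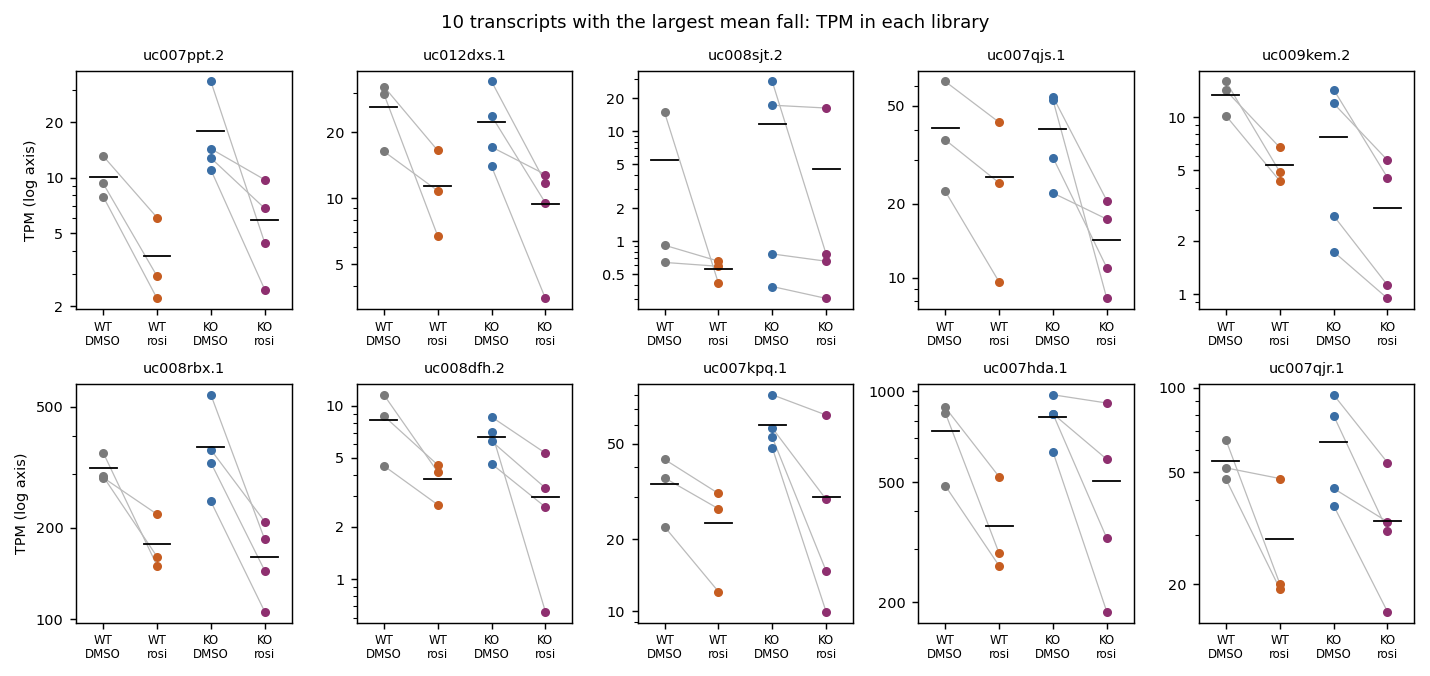
TPM on a log axis in each of the 14 libraries for the 10 transcripts with the most negative mean difference; points are libraries, grey lines join the 2 libraries of a pair and black bars are group means. All lines fall, since the transcripts were chosen that way, and in uc008sjt.2 most of the fall lies in 2 lines.

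Some of the 10 transcripts with the largest mean fall owed it to few pairs. The transcript uc008sjt.2 was at 14.8, 0.918 and 0.640 TPM in WT DMSO and at 0.414, 0.657 and 0.590 TPM in WT rosiglitazone libraries. In KO it was at 0.765, 28.4, 0.386 and 17.3 TPM with DMSO and at 0.656, 0.763, 0.301 and 16.3 TPM with rosiglitazone. High levels, of over 10 TPM, thus occurred in 4 libraries, 1 of them with rosiglitazone, and the differences were -3.49 in WT pair 1 and -4.06 in KO pair 2 against -0.21 to -0.04 in the other 5. Its SD over pairs, 1.80, was the highest of the 202, and after median-of-ratios scaling 5 of its 7 pairs remained below 0. Summed with the nearby row uc008sjr.2, its mean difference of -1.15 became -0.11. The nearby row was the more abundant, with a mean of 24.5 against 5.92 TPM, and weighs more in the sum. Such a change was not particular to uc008sjt.2. Summed with the nearby uc008dfg.2, at 25.3 TPM and itself at -0.14, the mean of uc008dfh.2 became -0.29.

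In uc008dfh.2, with a mean difference of -0.99, KO pair 4 fell by 2.29 and the other KO pairs by 0.60 to 0.73 on the log2 scale. The 2 transcripts with the next highest SD after uc008sjt.2 were also uneven. In uc009aen.2 the fall of 2.89 in KO pair 1 came from a rosiglitazone library listed at 2.76e-07 TPM, while its paired DMSO library was at 6.40 TPM. In uc012eag.1 the differences ran from -2.58 in KO pair 4, with 28.3 TPM in the DMSO library, to -0.04 in KO pair 1. These transcripts met the rule on all 7 signs, but 1 or 2 pairs stood far below the rest.

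At the other end were the transcripts with the most even falls. The transcript uc012bge.1 was at 7.63, 12.3 and 13.1 TPM in WT DMSO and at 4.52, 7.14 and 6.71 TPM in WT rosiglitazone libraries. In KO it was at 9.65, 11.5, 7.75 and 10.9 TPM with DMSO and at 5.79, 7.02, 4.58 and 6.34 TPM with rosiglitazone. Every pair therefore fell by a similar proportion, from -0.87 to -0.64 on the log2 scale, and the SD over pairs was 0.08 around a mean of -0.69. The next most even were uc008wgv.1, at -0.48 ± 0.11, and uc012hmz.1, at -0.46 ± 0.12 (SD, n = 7 pairs). Over all 202 the SD had a median of 0.31, against 0.25 over all transcripts above the minimum level.

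The most abundant transcripts after uc009eml.1 were uc007hda.1, uc009azo.2, uc008rbx.1 and uc007hnb.1. For uc008rbx.1 the levels were 295, 292 and 354 TPM in WT DMSO, and 161, 222 and 150.1 TPM in WT rosiglitazone libraries. In KO they were 361, 327, 244 and 548 TPM with DMSO and 209.6, 145, 106 and 183 TPM with rosiglitazone. Its highest rosiglitazone value, 222 TPM, was below its lowest DMSO value, 244 TPM, over all 14 libraries. The mean difference was -1.03 ± 0.38 (SD, n = 7 pairs) on the log2 scale, and the transcript was among the 6 with a mean of -1 or less.

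The levels of uc009azo.2 were close together with DMSO, at 381, 369.7 and 367 TPM in WT and 352, 342, 306 and 440.0 TPM in KO. With rosiglitazone they were 181, 302 and 261 TPM in WT and 273, 209, 179 and 242 TPM in KO. No library with rosiglitazone reached the lowest DMSO value, although the gap between 302 and 306 TPM was small. The mean difference was -0.65 ± 0.28 (SD, n = 7 pairs).

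In contrast, uc007hda.1 overlapped between treatments. It was at 487, 849 and 884 TPM in WT DMSO and at 265, 291 and 521 TPM in WT rosiglitazone libraries. In KO it was at 974, 631, 842 and 843 TPM with DMSO and at 914, 186, 326 and 595 TPM with rosiglitazone. The rosiglitazone library of KO replicate 1, at 914 TPM, was as high as the DMSO libraries, and its pair differed by only -0.09, whereas KO pair 2 differed by -1.75. The mean was -0.98 ± 0.60 (SD, n = 7 pairs), and after median-of-ratios scaling 6 of its 7 pairs were below 0, so that it no longer met the rule.

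Among the remaining members of the 10 largest falls, the mean difference was -1.13 in uc007qjs.1, -1.04 in uc009kem.2, -0.99 in uc007kpq.1 and -0.96 in uc007qjr.1. In uc007kpq.1 the KO pairs 3 and 4 fell by 2.17 and 1.79 on the log2 scale and KO pair 1 by 0.28. In uc007qjs.1 the KO mean was -1.41 and the WT mean -0.75. Of the 10, 7 met the rule after median-of-ratios scaling and 8 after quantile normalization. Among the 72 transcripts with a mean of -0.6 or less, these 10 included, 47 (65.3%) met it under both, and among the 130 with smaller falls 33 (25.4%) did.

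Median-of-ratios scaling moved all 202 mean differences toward 0 without turning any of them above 0, but all 7 pairs were below 0 in only 111. The median over all 12669 transcripts moved from -0.05 as deposited to 0.04 after median-of-ratios scaling and to 0.01 after quantile normalization. When the 8 transcripts over 5000 TPM, which include uc009eml.1, were removed and the rest rescaled to the same total, 142 lowered and 84 raised transcripts met the rule, 139 of the former being among the 202. TPM values are shares of a library and depend on one another, and which scaling is nearest to the amounts of RNA in the arteries cannot be told apart from these values.

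**Figure D2:**
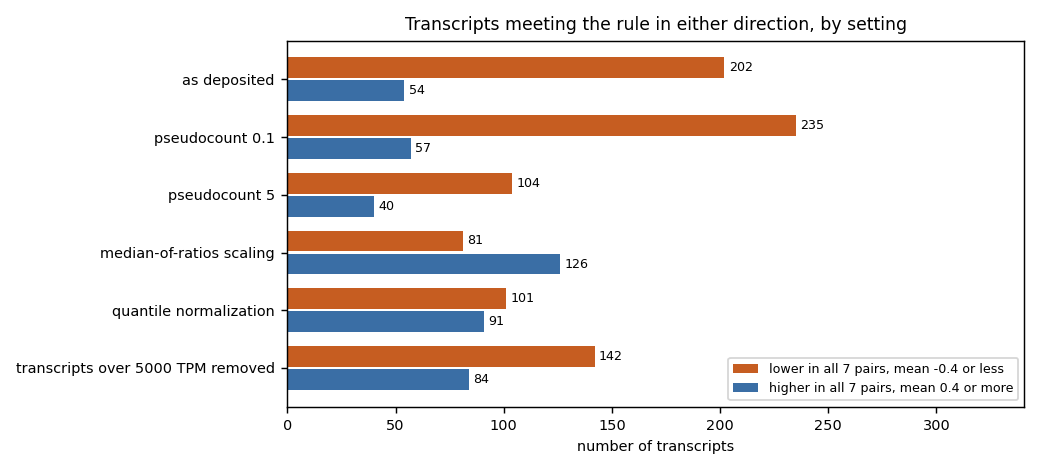
Number of transcripts that met the rule in either direction (horizontal axis) under 6 settings; orange bars are lowered and blue bars raised transcripts. Lowered transcripts outnumbered raised ones as deposited, 202 to 54, and not after median-of-ratios scaling, 81 to 126.

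A stricter description asks whether every rosiglitazone library lies below every DMSO library. Within WT this held for 88 of the 202, or 43.6%, beside 6.48% of all transcripts with a mean of at least 5 TPM. Within KO it held for 39, or 19.3%, beside 1.19%. The rule used these differences, so the gap between the shares is built in. Over all 14 libraries together it held for 9 transcripts, 4.46% of the 202 beside 0.15% of all.

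These 9, chosen after their values had been seen, were uc008rbx.1, uc009iro.1, uc009eml.1, uc012cha.2, uc012bge.1, uc007eiw.1, uc009azo.2, uc008rby.2 and uc008kgx.1. Of the 9, 8 met the rule under both other scalings, the exception being uc008kgx.1. In uc008kgx.1 the DMSO libraries were even, at 57.7, 60.5 and 61.4 TPM in WT and 56.6, 59.5, 57.4 and 53.8 TPM in KO. With rosiglitazone it was at 39.0, 52.7 and 40.3 TPM in WT and at 50.0, 31.0, 38.6 and 53.3 TPM in KO. The highest of these nearly reached the lowest DMSO level, and both belonged to KO pair 4, which differed by -0.01.

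By pair, the 202 differences had medians of -0.52, -0.57 and -0.46 in WT pairs 1 to 3 and of -0.42, -0.60, -0.62 and -0.50 in KO pairs 1 to 4. The medians over all transcripts were 0.05, -0.09 and -0.10 in WT and -0.16, 0.02, -0.04 and -0.06 in KO. The falls were spread over the pairs. The largest of a transcript's 7 falls lay most often in KO pair 3, in 44 transcripts, and least often in KO pair 1, in 21. The smallest fall lay most often in WT pair 3, in 40, and in KO pair 1, in 38. In KO pair 1 the transcripts were thus nearest to the bulk of the table, which there was itself shifted below 0.

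**Figure D3:**
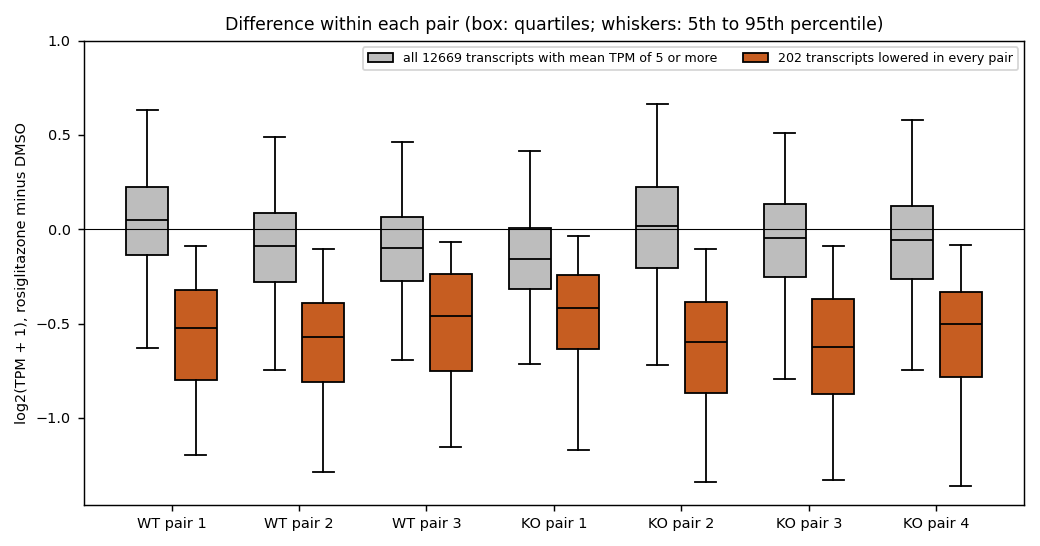
Difference in log2(TPM + 1), rosiglitazone minus DMSO (vertical axis), within each of the 7 pairs for all 12669 transcripts (grey) and the 202 lowered ones (orange); boxes are quartiles with the median and whiskers the 5th and 95th percentiles. The orange medians lie between -0.62 and -0.42 in all pairs, and the grey ones between -0.16 and 0.05.

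Since the drug difference chose the transcripts, the same rule was applied to part of the pairs and read in pairs that had no say in the choice. Chosen in 6 pairs, 225 to 280 transcripts were found, and 73.6% to 84.9% of them were below 0 in the left-out pair. Of all transcripts, 42.0% to 74.0% were below 0 there. The excess was widest for KO pair 2, with 82.8% against 47.9%, and for WT pair 1, with 74.6% against 42.0%. It was near nil for KO pair 1, with 75.2% against 74.0%. Differences in the left-out pair had medians from -0.46 to -0.24. In each pair this was a smaller fall than the median of the 202 there, which ran from -0.62 to -0.42. The lists differ, and the 202 were chosen with that pair included. Raised transcripts, chosen likewise in 6 pairs, kept their side in the left-out pair in 66.7% to 92.6%, against 25.7% to 57.7% of all. No p is given for these shares, since transcripts of a library are not independent.

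**Figure D4:**
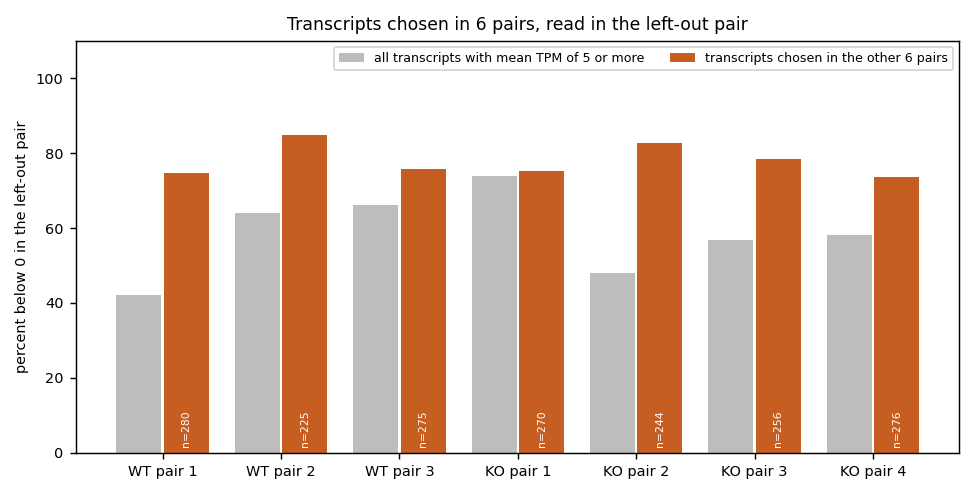
Percent of transcripts below 0 (vertical axis) in each left-out pair, for all transcripts with a mean of at least 5 TPM (grey) and for those lowered in the other 6 pairs (orange, n in the bar). The orange bar is 74.6% against 42.0% in WT pair 1 and 75.2% against 74.0% in KO pair 1.

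The genotypes share no library, so each can be read with transcripts chosen in the other. Only the minimum mean of 5 TPM was taken over all 14 libraries, those of the read genotype included. Lowered in all 3 WT pairs with a mean of -0.4 or less were 593 transcripts, 4.68% of all. Of these, 203 (34.2%) were lower in all 4 KO pairs, against 15.8% of all transcripts. Lowered in all 4 KO pairs with the same mean were 461 transcripts, 3.64% of all, and 207 of these (44.9%) were lower in all 3 WT pairs, against 20.5%. The rule was met in both genotypes by 138 transcripts, 23.3% of the WT list and 29.9% of the KO list. In the genotype that had not chosen it, the WT list of 593 had a median difference of -0.31 and the KO list of 461 one of -0.30, against -0.06 and -0.05 over all transcripts. After median-of-ratios scaling the lists were shorter, and 81 of 375 (21.6% against 5.98%) and 83 of 205 (40.5% against 11.6%) were lower in every pair of the other genotype.

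Within the 202, the fall was of similar median size in WT and KO, and its difference between genotypes was not tested. The mean over the WT pairs had a median of -0.53 and that over the KO pairs of -0.56. The fall was larger in WT in 95 transcripts and in KO in 107, and in 129 the genotypes' means were within 0.2 of each other. The KO minus WT difference of these means had a median of -0.03 and ranged from -0.82 to 0.76. A mean of -0.4 or less in each genotype by itself was reached by 138. These are descriptions, since the rule demanded a fall in every pair of both genotypes.

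The level entered the rule through the minimum mean over all 14 libraries. It also entered through log2(TPM + 1), which understates changes of low transcripts. With these limits, the level was compared between genotypes. A transcript low in some libraries could reach that minimum only by being high in others. With limma over all 29304 tested transcripts and Benjamini-Hochberg adjustment, 0 of the 202 passed an adjusted p of 0.05 for KO minus WT averaged over the treatments. Of all tested transcripts 17, or 0.058%, passed, and of those with a mean of at least 5 TPM 8, or 0.0632%. At an unadjusted p under 0.05 there were 12 of the 202, or 5.94%, 8 higher and 4 lower in KO. Of all tested there were 1492, or 5.09%, and of those with a mean of at least 5 TPM 5.16%. For TPM as deposited the share was thus near the background. With median-of-ratios scaling there were 21 of the 202, 6 higher and 15 lower, beside 1660 of all tested. With quantile normalization there were 19, 5 higher and 14 lower, beside 1758. Number and direction thus depended on the scaling. As deposited, the median log2 difference was -0.01 over the 202 and 0.06 over all. The smallest p was that of uc007doy.1, which stood at 5.91, 5.55 and 4.52 TPM in WT DMSO and 8.07, 5.01, 8.62 and 10.5 TPM in KO DMSO libraries. With rosiglitazone it was at 1.14, 2.52 and 3.44 TPM in WT and at 5.29, 3.396, 4.50 and 7.19 TPM in KO. The KO levels were mostly the higher ones, with a difference of 0.68 (SE 0.20) on the log2 scale and a limma adjusted p of 0.822. The next were uc007zxh.2 at 0.31 (SE 0.11), uc008dlx.1 at 0.44 (SE 0.16) and uc007fan.2 at 0.43 (SE 0.18), each with a limma adjusted p of 0.891.

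The KO libraries bear sample numbers from 2 to 5 (replicates 1 and 2) and from 18 to 21 (replicates 3 and 4), and the WT libraries from 6 to 11. The labels do not say what a number marks, and since the genotypes do not share a range, genotype and number cannot be told apart between WT and KO. Compared within KO over both treatments with limma, 4 of the 202 passed an adjusted p of 0.05, all lower in the libraries numbered 18 to 21. That is 1.98% of them, against 0.324% of all tested transcripts in either direction and 0.201% lower. Among tested transcripts with a mean of at least 5 TPM, the like comparison for the 202, the shares were 0.553% and 0.371%. At an unadjusted p under 0.05 the shares were 24.3% of the 202, or 49 transcripts, 16.3% of those with a mean of at least 5 TPM and 12.5% of all tested. With the number of the pair as a block with a random effect, 2 of the 202 passed, uc009kem.2 and uc007lid.1, beside 31 of all 29304 tested. With the values averaged within pairs 0 of the 202 passed, beside 5 of all tested. At an unadjusted p under 0.05 there were then 39 of the 202, beside 2285 of all tested. For these models no share was computed among transcripts with a mean of at least 5 TPM, so the like comparison is lacking. The count of the 202 that passed thus rests on how the pairing enters the model. In the libraries numbered 18 to 21 the 4 transcripts had treatment means of 1.04 to 3.51 TPM. They met the minimum mean of 5 TPM only through the other libraries, so the direction of these calls is not independent of the rule.

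The transcript with the largest such difference was uc009kem.2, also the fifth by mean fall with rosiglitazone. In KO DMSO it stood at 14.3 and 11.9 TPM in the libraries of the lower numbers and at 2.77 and 1.74 TPM in those of the higher. In KO rosiglitazone the levels were 4.55 and 5.71 TPM against 1.12 and 0.946 TPM, and in WT they were 14.1, 10.2 and 15.9 TPM with DMSO and 6.73, 4.36 and 4.90 TPM with rosiglitazone. The WT libraries thus resembled the KO libraries of the lower numbers. The difference was -1.86 (SE 0.18) on the log2 scale, with a limma adjusted p of 0.00244. That fit takes the libraries of a pair as independent. With values averaged within pairs the limma adjusted p was 0.0718. In this transcript the spread by sample number was larger than the drug difference, and yet each pair was lower with rosiglitazone.

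The same pattern held for uc007lid.1, at -1.51 (SE 0.19, limma adjusted p 0.00710), which stood at 13.4, 10.5, 3.25 and 2.49 TPM in KO DMSO replicates 1 to 4. It held for uc012cov.1, at -1.18 (SE 0.17, limma adjusted p 0.0194), with 13.6, 10.4, 3.59 and 3.02 TPM. It also held for uc008aio.1, at -1.62 (SE 0.26, limma adjusted p 0.0296), with 15.04, 11.6, 3.29 and 3.73 TPM. The first 3 of the 4 moved closely together over the 14 libraries, with r of log2 levels from 0.968 to 0.995, as a description. Between each of these 3 and uc008aio.1, r was 0.784 to 0.850. The 4 were chosen for a fall with rosiglitazone and for a difference by sample number, so a high r is in part built in. Both of the weaker calls depended on single libraries. The limma adjusted p of uc012cov.1 lay between 0.0512 and 0.0920 when the KO library left out was DMSO 1, DMSO 2, DMSO 4 or rosiglitazone 2. That of uc008aio.1 lay between 0.0570 and 0.119 without WT DMSO replicate 3, any 1 of the KO DMSO replicates, or KO rosiglitazone replicate 1 or 3. With the random block the limma adjusted p was 0.0726 for uc012cov.1 and 0.0812 for uc008aio.1. With values averaged within pairs it was 0.119 for uc007lid.1, 0.203 for uc012cov.1 and 0.229 for uc008aio.1.

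**Figure D5:**
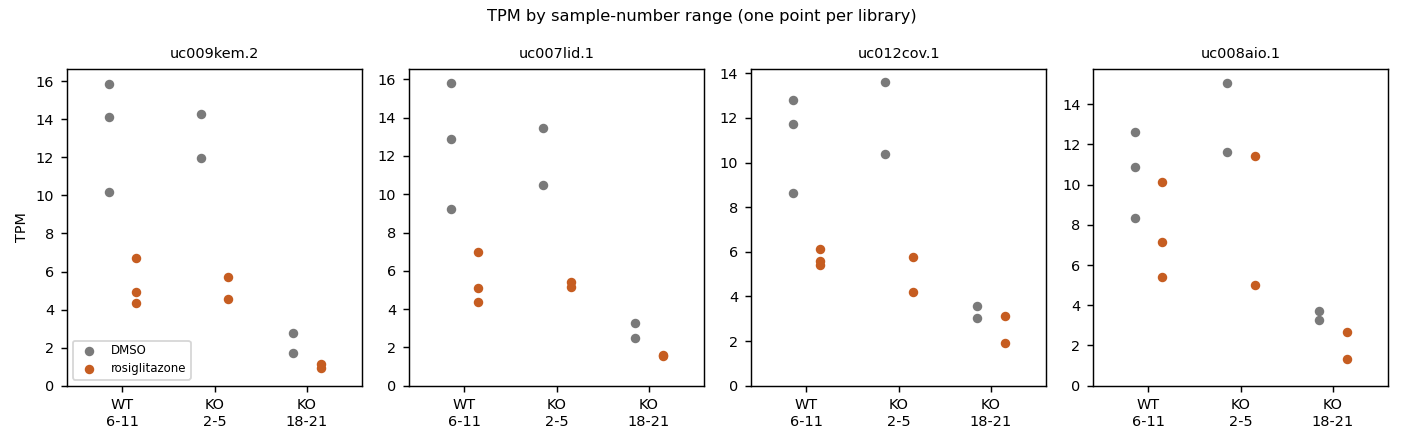
TPM (vertical axis) of the 4 transcripts that differed by sample number within KO, with 1 point per library, grey for DMSO and orange for rosiglitazone. The KO libraries numbered 18 to 21 lie low in all 4 panels, and WT libraries lie near the KO libraries numbered 2 to 5. The minimum mean of 5 TPM was met through the WT and the lower-numbered KO libraries.

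Apart from their common direction, the 202 moved together from pair to pair about as little as other transcripts. Over the 7 pair differences, the mean correlation between 2 of them was 0.034, against 0.065 between 2 of all transcripts above the minimum. For the mean level of a pair, with the genotype mean removed, it was 0.231 against 0.220. These correlations share libraries and are given as a description.

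Some of the 202 stood next to each other in the table. Another of the 202 stood in the adjacent row for 24, or 11.9%, whereas for 1.06% of all transcripts above the minimum an adjacent row was a lowered one. Within 5 rows the shares were 18.8% and 3.99%. Reads that fit several transcripts are divided among them, and how far such rows share reads was not tested. Within 2 rows the shares were 16.8% and 1.97%, and these 34 transcripts formed 17 neighbouring sets of 2. The pair differences of the 2 rows correlated above 0.8 in 4 sets and below 0 in 4.

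The set with the highest correlation was uc007hda.1 and uc007hdc.2, with r = 0.967 over 7 pairs as a description. The levels of uc007hdc.2 were 34.5, 63.2 and 56.1 TPM in WT DMSO and 20.3, 27.5 and 32.8 TPM in WT rosiglitazone libraries. In KO they were 68.5, 50.4, 56.8 and 55.2 TPM with DMSO and 66.8, 15.1, 19.8 and 38.7 TPM with rosiglitazone. Its rosiglitazone library of KO replicate 1 was thus high in the same way as that of uc007hda.1. The transcripts uc008rbx.1 and uc008rby.2 formed another set, with r = 0.794, and both were among the 9 without overlap over the 14 libraries.

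A fall of 1 transcript can also come with a rise of another one of the same locus, so rows within 5 places of the 10 largest falls were read. Of 90 such rows, 53 had a mean of at least 1 TPM. None of the 53 was above 0 in all 7 pairs, and 1, uc007hcw.2 near uc007hda.1, was above 0 in 6 pairs, with a mean of 2.19 TPM. The largest mean rise among the 53 was 0.70, in uc008sjr.2, which stands 2 rows from uc008sjt.2. Its levels were 12.97, 42.4 and 37.7 TPM in WT DMSO and 24.6, 32.99 and 32.2 TPM in WT rosiglitazone libraries. In KO they were 35.99, 7.97, 22.8 and 0.0192 TPM with DMSO and 37.2, 32.1, 17.1 and 7.59 TPM with rosiglitazone. The 4 libraries in which it was lowest were those in which uc008sjt.2 was over 10 TPM. How far these 2 rows share reads was not tested. Below 0 in all 7 pairs were 4, of which 3 were among the 202. The fourth was uc007qjq.1, with a mean of 2.96 TPM and a mean difference of -1.71, next to uc007qjr.1 and uc007qjs.1. The 3 rows together fell in all pairs, and only the low level of uc007qjq.1 kept it outside the rule.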

How the data were processed

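RNA of 14 carotid artery libraries was analysed. The authors deposited 1 table of TPM values for 63244 transcripts, in which every library sums to the same total. Per the submitters' processing notes, the tools were kallisto, sleuth and FastQC (versions not given) and the genome builds GRCm38 and mm10. The transcript annotation was not stated in these sources. Read depth cannot be had from TPM and is unknown, so no counting interval was computed. Columns were matched by the sample number in their names, and all 14 were used.

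The rule took transcripts with a mean of at least 5 TPM. Values were log2(TPM + 1), which understates changes of low transcripts. Levels were tested with limma 3.58.1 in R 4.3.3, with 1 mean per group, trended variances and two-sided Benjamini-Hochberg adjusted p at 0.05, on transcripts that reached 1 TPM in 3 or more libraries. Members, lists and rules were chosen with earlier results of these data known. Named transcripts were the 10 largest mean falls, the 5 most abundant, the 4 smallest p by genotype and by sample number, the 3 most and 3 least even falls, and the 2 on each side of the limit. No p is given for the drug difference, which chose the transcripts. The marker and pathway lists could not be used, because 0 identifiers matched.

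Deviations from the group means correlated between same-numbered libraries in all 7 pairs, with r from 0.133 to 0.358, so the numbers were taken as pairs from the data, since the labels do not say what they mark. KO rosiglitazone replicate 1 correlated more with another number (0.213 against 0.137). Alternatives covered the pseudocount, filter, scaling, limits of the rule, variance model, library weights, replicate block and left-out libraries. Leaving out numbers 18 to 21, removing transcripts over 5000 TPM, counting identical rows once and the exchange between genotypes after median-of-ratios scaling were added after seeing the data.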

Additional observations from a re-analysis of the deposited data

Results flagged for a closer look

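In groups of 4 values, the gap of the highest or lowest to its neighbour was set against the whole range for the named transcripts and the summed level, and 9 of 84 sets were past Dixon's 95% critical value. Chance gives about 1 in 20 for sets not chosen by their values, but many of these transcripts were named for large, even or uneven falls, so the count is not set against that rate. KO replicate 4 was the distant library or pair in 7 of the 9. In KO DMSO libraries, uc007ppt.2 had a ratio of 0.851 (33.3 TPM in replicate 4, 11.0 to 14.3 TPM in the others) and uc012hmz.1 of 0.880 (16.05 against 9.88 to 10.6 TPM). In KO rosiglitazone libraries, uc008sjt.2 had 0.971 (16.3 TPM in replicate 4 against 0.301 to 0.763 TPM), uc008qjz.3 had 0.911 (134 TPM in replicate 1 against 62.0 to 68.4 TPM), and the summed TPM of the 202 transcripts had 0.952 (9270.52 in replicate 4 against 9867.49 to 9897.83).

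Among differences of the 4 KO pairs on the log2 scale, uc008sjt.2 had a ratio of 0.997 (-4.06 in pair 2 against -0.09 to -0.08). In pair 4, uc008dfh.2 had 0.923 (-2.29 against -0.73 to -0.60), uc012eag.1 had 0.917 (-2.58 against -0.25 to -0.04), and uc012bge.1 had 0.858 (-0.69 against -0.65 to -0.64), the last over a very narrow range. The part of the pair's other composition in these values was not tested.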

How the results depend on the processing

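The number of lowered transcripts, 202 as reported, was 104 with a pseudocount of 5, 81 with median-of-ratios scaling, 101 with quantile normalization, 493 with no minimum level, 115 with a minimum mean of 10 TPM, 340 with a mean of -0.3 or less and 124 with -0.5 or less. Leaving out each pair in turn gave 225 to 280, of which 180 to 191 were among the 202. Leaving out sample numbers 18 to 21 gave 338, of which 169 were among the 202. Fewer pairs must then agree in sign, and the mean difference and the minimum level are also taken over fewer libraries. With a pseudocount of 0.1 it was 235, and with transcripts over 5000 TPM removed 142. No member passed the genotype test under any alternative run, the replicate block included. The 4 members that differed by sample number became 10 with median-of-ratios scaling and 7 with quantile normalization. They were 7 on transcripts with a mean of at least 5 TPM and 2 with library weights. With the replicate block as a random effect they were 2, and with pairs averaged 0. Single libraries left out gave 2 to 6, with 2 without KO DMSO replicate 1, 2 or 4. Calls over all tested transcripts, 95 in the main fit, moved as well. In the same order of settings they were 286, 282, 139, 39, 31 and 5. With single libraries left out they were 30 to 109. The causes of these changes were not tested. Counting depth cannot be recovered from TPM, so the precision of the low transcripts is unknown.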
